A study of Mus musculus with 16 samples.

Results

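CT26 cells that carried hairpins against both TR1 and Sep15 (shTR1/shSep15) were compared with CT26 cells that carried the empty vector (control). The members of the comparison were chosen by the titles of the arrays, which gave 8 of the 16 arrays of the series, 4 for each of these lines. CT26 is a colon carcinoma line of the BALB/c mouse. Both lines were stably transfected with the pU6-m3 vector, in which a U6 promoter drives a short hairpin RNA, so that the control cells share the vector with the knockdown cells and lack a hairpin. The remaining arrays came from the same cells with the hairpin against Sep15 alone (shSep15) or TR1 alone (shTR1), again with 4 arrays each, and are used here only to show where the double knockdown differs from them. Each array was hybridized with a different mRNA sample of its construct. No source used here states that these samples came from separate cultures, and p-values therefore measure the spread between mRNA samples.

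TR1 (gene Txnrd1) is the cytosolic thioredoxin reductase, a selenoenzyme that uses NADPH to keep thioredoxin reduced, and thioredoxin in turn serves ribonucleotide reductase, peroxiredoxins and many transcription factors. Sep15 (gene Selenof) is a selenoprotein with a thioredoxin-like fold that resides in the endoplasmic reticulum, bound to UGGT, the sensor of misfolded glycoproteins in the calnexin cycle. Both proteins are known for roles in cancer cells as well as in normal tissue, and colon carcinoma cells express both. The question of the comparison is what the transcriptome looks like when both are lowered in the same cells.

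The sequences that the hairpins were designed on are shown because they define the double knockdown cells, which express both of them. They are written 5′ to 3′, and no base is set apart in capitals.
TR1: atcgctctgacaagcttattag
Sep15: acagaagagttccatttaa
The TR1 sequence has 22 bases, of which 9 are G or C (40.9%), and the Sep15 sequence has 19 bases, of which 6 are G or C (31.6%).

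Signals are given as deposited, on a log2 scale, where a difference of 1 is a factor of 2. Each probe set reports the abundance of 1 transcript or a group of transcripts, and levels were not compared between probe sets. The medians of the 8 arrays lay between 4.47 and 4.58. Control replicate 2 stood apart: its lowest correlation with another control array was 0.939, whereas the lowest correlation among the shTR1/shSep15 arrays was 0.982. Where the difference of a named gene from control changed by more than 1.5 times without this array, both values are given. Among the shTR1 arrays, which enter only the comparisons with the single knockdowns, the signal of Txnrd1 was 7.84 and 7.89 for replicates 1 and 3 but 10.57 for replicate 2 and 9.71 for replicate 4, and the latter pair, at the level of control cells, goes against its label.

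Markers of the cell types that could be in the cultures were read first. Vim, the intermediate filament of mesenchymal cells, had a mean of 12.97 in control and 13.08 in shTR1/shSep15 cells, and Col1a2, a chain of type I collagen, 11.3 and 11.98, a difference of 0.68 that was 0.28 without control replicate 2. Among the markers of colon epithelium, Krt20, a keratin of differentiated enterocytes, was at 8.31 and 8.57, but Cdh1 (E-cadherin) was at 2.59 and 2.56 and Vil1 (villin) at 3.67 and 3.49, all of which is below the median of the arrays. These are single members of their lists. The mean signal of the 10 fibroblast and mesenchyme markers was 6.63 in control and 6.8 in shTR1/shSep15 cells. For the 10 colon epithelium markers it was 4.86 and 4.88. Ptprc (CD45), which marks leukocytes, was at 2.79 and 2.85, and Alb (albumin), which marks hepatocytes, at 3.6 and 3.58. In limma and in the methods' test after adjustment, 0 of 40 markers passed between these lines. At an unadjusted p under 0.05, 2 of the 40 markers were higher, where 6.2% of all 18193 genes were higher. Both were leukocyte markers, the macrophage glycoprotein Cd68 by 1.35 (adjusted p = 0.587) and the endotoxin co-receptor Cd14 by 0.59 (adjusted p = 0.607). Of the 11 leukocyte markers measured, 6 were higher and 5 lower, with a median of 0.04. Arrays of cultured cells cannot tell fewer cells of a type from less RNA per cell.

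Selenof fell in the double knockdown cells. Its signal was 11.56, 10.78, 11.57 and 11.42 in the control arrays and 7.86, 7.34, 7.77 and 7.66 in the shTR1/shSep15 arrays. The groups were far apart, with means of 11.33 ± 0.37 (SD, n = 4) and 7.66 ± 0.22 (SD, n = 4). The log2 difference was -3.68 (standard error 0.19, 95% interval -4.09 to -3.26), or 12.8-fold lower, with an adjusted p of 4.86e-07 from limma. Selenof was called under each of the 18 other settings run for this comparison. A second Selenof probe set differed by -0.01, but its means of 3.59 in control and 3.57 in shTR1/shSep15 cells lay below the median of the arrays. It therefore left little signal that could fall.

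Txnrd1 was lower on all arrays of the double knockdown but did not pass the test across all probe sets. Its signal was 10.39, 9.45, 9.9 and 10.1 in control cells and 7.59, 7.18, 7.73 and 7.91 in shTR1/shSep15 cells, so that the groups did not overlap. The means were 9.96 ± 0.4 (SD, n = 4) and 7.6 ± 0.31 (SD, n = 4), a log2 difference of -2.36 (standard error 0.49, 95% interval -3.41 to -1.30) or 5.13-fold, and limma put its adjusted p at 0.19. The exact permutation test of these 8 values gave p = 0.0286, which is as small as 4 and 4 arrays allow. When limma was fitted to the 8 arrays of these lines alone, which leaves the spread of the single knockdowns out of the error, the adjusted p was 0.0199. The other Txnrd1 probe sets differed by -1.09 (adjusted p = 0.265) and -0.55 (adjusted p = 0.402), again with all 4 arrays below the controls.

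Across all 45037 probe sets, 11 passed the test in shTR1/shSep15 against control (0.0244%), 2 higher (0.00444%) and 9 lower (0.02%). Without adjustment, 3664 probe sets had a p under 0.05 (8.14%). Counted by genes, with the brightest single-symbol probe set for each, 7 of 18193 passed (0.0385%), 2 of them higher (0.011%) and 5 lower (0.0275%). Of all genes, 785 had all 4 double knockdown arrays above all 4 control arrays (4.31%), and 245 had all 4 below (1.35%). Of the 11 probe sets, 9 belong to 8 named genes and 2 carry no gene name in the annotation used here. The unnamed probe sets were lower by 4.59 and 3.47 on the log2 scale (adjusted p = 0.00015 and 0.000321). They were about as low in both single knockdowns, which differed from control by -4.78 and -3.4 (shSep15) and by -4.39 and -3.47 (shTR1).

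Dppa2, Jakmip3, Zfp397 and Tshz1 fell in shTR1/shSep15 cells and were about as low in both single knockdowns. Dppa2, a nuclear protein of early embryos and pluripotent stem cells, had a signal of 8.27, 8.6, 8.34 and 7.37 in control cells and of 3.2, 3.54, 3.48 and 5.54 in shTR1/shSep15 cells. Replicate 4 of the double knockdown kept more signal than the other 3, and all 4 lay below the controls. The log2 difference was -4.21 (standard error 0.45, adjusted p = 0.00103), or 18.5-fold. A second Dppa2 probe set read 7.07, 7.69, 7.45 and 6.86 in control and 3.01, 3.08, 2.98 and 4.62 in shTR1/shSep15 cells, with a difference of -3.85 (adjusted p = 0.00015), and replicate 4 was again the highest. The means of the single knockdowns were 3.74 in shSep15 and 3.51 in shTR1 cells, and neither differed from the double knockdown at the threshold (adjusted p = 0.937 and 0.756). Dppa4, the gene next to Dppa2 on chromosome 16 and its binding partner, differed from control by 0.06 in the double knockdown. In the single knockdowns it differed from control by -3.41 (shSep15) and -1.29 (shTR1).

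Jakmip3, which encodes a microtubule-binding protein best known from neurons and lies on chromosome 7, read 4.77, 4.99, 4.42 and 4.72 in control and 3.38, 3.34, 3.29 and 3.26 in shTR1/shSep15 cells. All 8 values are low on these arrays, and the groups did not overlap. The difference was -1.41 (standard error 0.12, 2.65-fold, adjusted p = 0.00015), and the single knockdowns were at 3.51 and 3.49.

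The 2 other genes of this kind lie on chromosome 18, each with neighbours that were lower too. Zfp397, a zinc finger protein of centromeres, read 6.88, 6.68, 6.47 and 6.77 in control and 5.83, 5.58, 5.88 and 5.61 in shTR1/shSep15 cells, a difference of -0.97 (standard error 0.12, 1.96-fold, adjusted p = 0.00409). Its means in shSep15 and shTR1 cells were 5.56 and 5.81. The brightest Zfp397 probe set differed from control by -1.49 (adjusted p = 0.265) and another by -1.98 (adjusted p = 0.113), and neither passed. The next genes on the chromosome, Zfp35 and Zfp24, which also encode zinc finger proteins, were below control on all 4 arrays, with differences of -1.29 (adjusted p = 0.131) and -1.25 (adjusted p = 0.264), while the genes on either side of this group, Mapre2 and Ino80c, differed by -0.18 and 0.18. Zfp397 lost its call in 2 of the 18 other settings.

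Tshz1, a teashirt zinc finger transcription factor, read 9.87, 8.97, 8.89 and 9.5 in control and 7.45, 6.57, 7.6 and 7.36 in shTR1/shSep15 cells. The groups did not overlap, and the means of the single knockdowns were 6.57 and 7.46. The difference was -2.06 (standard error 0.32, 4.18-fold, adjusted p = 0.047). A second Tshz1 probe set differed by -1.58 (adjusted p = 0.143). Zadh2, its neighbour, which encodes a zinc-binding reductase of prostaglandins, read 10.38, 8.52, 9.92 and 10.15 in control and 8.05, 7.36, 8.2 and 8.29 in shTR1/shSep15 cells (-1.77, adjusted p = 0.148, and 0.00183 without control replicate 2). Tshz1 lost its call in 12 of the 18 other settings, among them each setting that left out an array other than control replicate 2.

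Cpn1 and Prkx differed from control in the double knockdown and differed there from both single knockdowns as well. Cpn1, the catalytic subunit of carboxypeptidase N, which removes terminal arginine or lysine from kinins and complement peptides, rose. It read 3.87, 4.38, 4.54 and 4.68 in control and 6.37, 6.18, 6.48 and 5.79 in shTR1/shSep15 cells, with no overlap. The difference was 1.84 (standard error 0.22, 3.57-fold, adjusted p = 0.00409). With means of 4.3 in shSep15 and 4.41 in shTR1 cells, the single knockdowns lay at the control level, and the double knockdown was above each of them (adjusted p = 0.000446 and 0.00853). The departure from the sum of the effects of each hairpin was 1.86 (adjusted p = 0.00623). A second Cpn1 probe set, with means of 4.07 in control and 3.97 in shTR1/shSep15 cells, differed from control by -0.1.

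Prkx, an X-linked protein kinase related to the catalytic subunit of protein kinase A, fell. It read 7.21, 8.2, 7.53 and 6.93 in control and 5.7, 5.07, 5.55 and 5.45 in shTR1/shSep15 cells. The highest double knockdown array lay below the lowest control array, and the difference was -2.03 (standard error 0.27, 4.07-fold, adjusted p = 0.0125). The means were 7.82 in shSep15 and 7.16 in shTR1 cells, and the double knockdown was below both (adjusted p = 0.000417 and 0.0324). The other Prkx probe sets differed from control by -1.24 (adjusted p = 0.249) and -0.9 (adjusted p = 0.515), with all 4 arrays below the controls in both. Prkx lost its call in 7 of the 18 other settings, with adjusted p up to 0.0706.

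Ccr1, a receptor for inflammatory chemokines of the CC family, rose in the double knockdown and was high in shTR1 but not in shSep15 cells. It read 4.19, 4.24, 4.91 and 4.23 in control and 6.84, 6.16, 6.95 and 6.95 in shTR1/shSep15 cells. The difference was 2.34 (standard error 0.34, 5.06-fold, adjusted p = 0.0267). The means of the single knockdowns were 4.11 in shSep15 and 7.56 in shTR1 cells, and the double knockdown passed the test against shSep15 (adjusted p = 0.00103) and not against shTR1 (adjusted p = 0.405). A second Ccr1 probe set, with means of 2.39 in control and 2.7 in shTR1/shSep15 cells, differed from control by 0.31. Both means lay below the median of the arrays. The call was lost in 10 of the 18 other settings, with an adjusted p of 0.054 without control replicate 2.

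**Figure D1:**
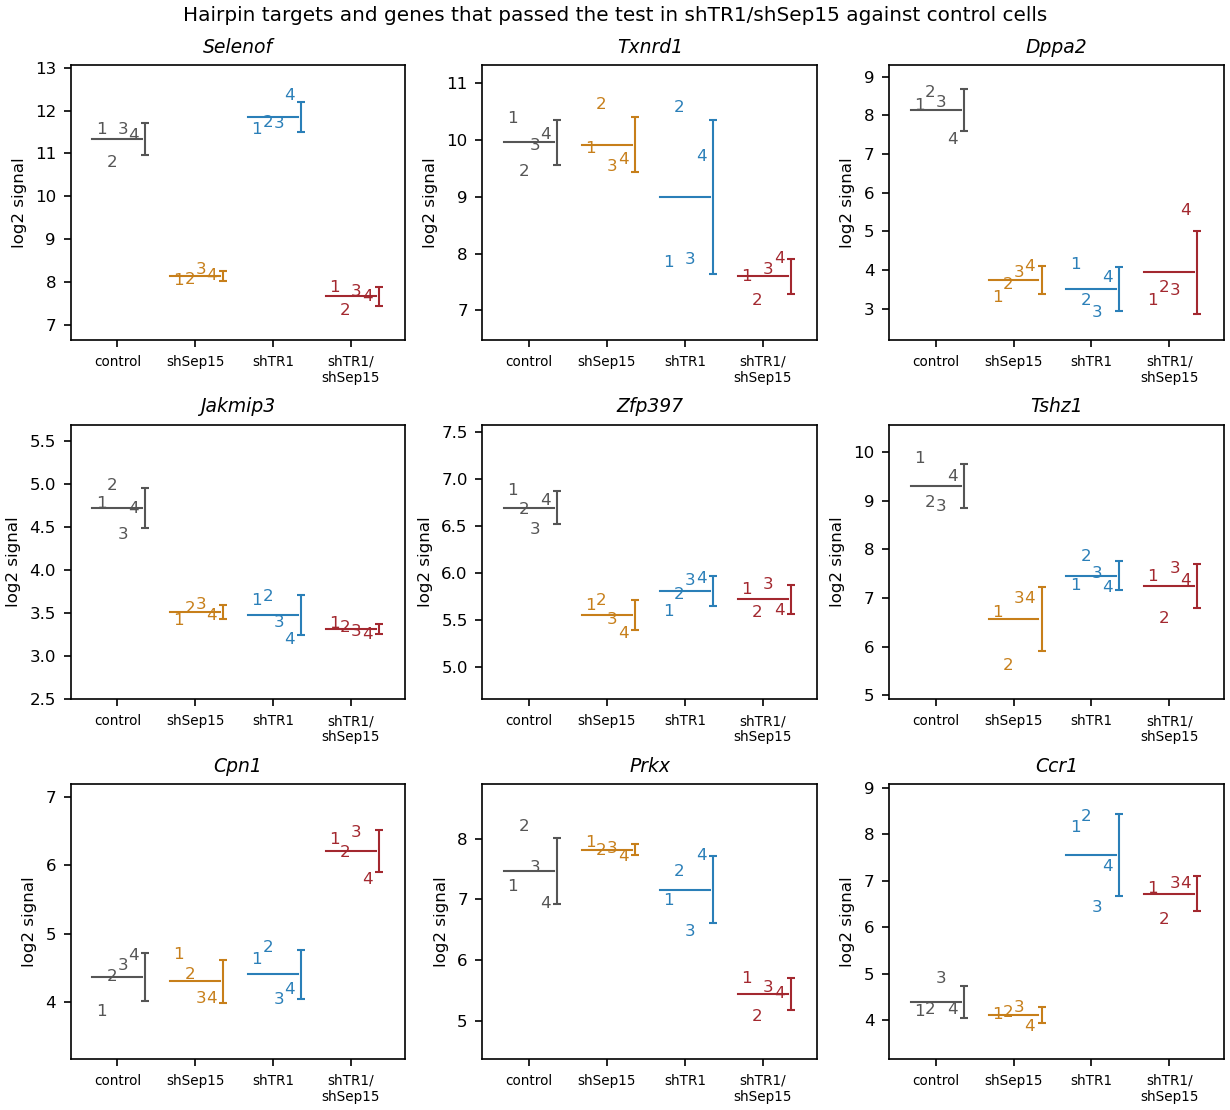
The log2 signal of the targeted and called genes in the 4 lines, with 1 panel per gene. Numbers are arrays by replicate, lines show means and bars the SD of 4 arrays. Dppa2, Jakmip3, Zfp397 and Tshz1 are low in all hairpin lines, whereas Cpn1 and Prkx stand apart in shTR1/shSep15 cells.

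The largest differences among probe sets whose arrays did not overlap included many that did not pass the test, and their values are given without a call. Where another probe set of the gene is the brightest, its value is given too. On the higher side they held several secreted and matrix proteins. Tnc, the matricellular protein tenascin C, read 3.33, 4.43, 3.59 and 3.95 in control and 6.94, 6.62, 6.94 and 7.46 in shTR1/shSep15 cells, a gap of more than 2 between the groups. The difference of 3.17 (standard error 0.56, 8.98-fold) had an adjusted p of 0.0957, and the means of shSep15 and shTR1 cells were 3.38 and 4.38. A dimmer Tnc probe set differed by 0.41 (adjusted p = 0.346). Slc14a1, a urea transporter, read 4.74, 4.68, 4.69 and 4.58 in control and 7.27, 7.32, 7.68 and 7.96 in shTR1/shSep15 cells (2.88, adjusted p = 0.216), and its second probe set differed by 1.86 (adjusted p = 0.082). Btc, the EGF receptor ligand betacellulin, read 4.4, 4.66, 4.46 and 4.15 in control and 7.24, 6.16, 7.49 and 6.52 in shTR1/shSep15 cells (2.44, adjusted p = 0.0629). Slc14a1 and Btc lay near the median of all probe sets in control cells and above it in every double knockdown array.

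Esm1, a proteoglycan secreted by endothelial and tumour cells, differed by 2.56, of which much rests on control replicate 3 (8.35, 8.08, 3.18 and 7.55 in control, 9.81, 8.73, 9.91 and 8.95 in shTR1/shSep15 cells). Ngef, a guanine nucleotide exchange factor of neurons, was higher by 2.08 (adjusted p = 0.0683), Pla2g7, the plasma lipase that inactivates platelet-activating factor, by 1.95 (adjusted p = 0.113), and Thbs2, a thrombospondin that inhibits angiogenesis, by 2.06 (adjusted p = 0.307). Cldn6, a tight junction protein of embryonic epithelia, was higher by 2.0, Syt7, a calcium sensor of exocytosis, by 1.88, and Prrx1, a homeobox factor of mesenchyme, by 2.05, with 1.08 for its brightest probe set. For Mmd, 3 probe sets were higher, by 2.2, 1.75 (the brightest) and 1.58. Ifitm1, an interferon-induced membrane protein, was higher by 2.24 (8.51, 8.84, 9.1 and 7.92 against 10.74, 10.77, 10.87 and 10.93). Tk1, the thymidine kinase of dividing cells, spread widely in control cells (9.08, 5.21, 7.08 and 9.13 against 9.38, 9.75, 9.35 and 9.34), and its difference of 1.83 was 1.02 without control replicate 2.

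On the lower side the largest difference without a call was in Slc9b1, a sodium/proton exchanger, which read 6.21, 5.94, 5.84 and 5.01 in control and 2.86, 3.28, 3.06 and 3.12 in shTR1/shSep15 cells (-2.67, 6.36-fold, adjusted p = 0.14). Its other 4 probe sets differed by -2.55, -0.91, 0.06 and -0.2. The means in shSep15 and shTR1 cells were 6.13 and 5.22, and the double knockdown was below shSep15 by 3.05 on the log2 scale (adjusted p = 0.00467) and below shTR1 by 2.14 (adjusted p = 0.135). Malat1, a long nuclear RNA, read 9.95, 11.52, 10.23 and 9.67 in control and 9.41, 7.24, 8.38 and 7.62 in shTR1/shSep15 cells (-2.18, adjusted p = 0.264), and all 7 Malat1 probe sets were lower, by 1.87 on the log2 scale for the brightest. Trim30a, an interferon-inducible ubiquitin ligase, read 5.76, 6.69, 5.57 and 5.04 against 3.47, 2.88, 3.71 and 3.94 (-2.27, adjusted p = 0.402), and its brightest probe set differed by -1.98 (adjusted p = 0.46).

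For several other genes of this group control replicate 2 held the highest value. Ccn1 (CYR61), a matricellular protein induced by growth factors, read 7.93, 10.08, 6.97 and 7.42 in control and 6.4, 5.62, 6.22 and 5.1 in shTR1/shSep15 cells (-2.27, and -1.6 without control replicate 2). The brightest Ccn1 probe set overlapped between the lines and differed by -1.2, or -0.45 without that array. Klf2, a Krüppel-like factor, read 8.64, 10.97, 8.37 and 8.52 against 7.37, 7.02, 7.09 and 7.16 (-1.97, and -1.35 without that array). Plat, tissue plasminogen activator, read 7.9, 11.49, 7.69 and 7.95 against 7.08, 6.42, 7.21 and 7.22 (-1.78, and -0.87 without it). Cxcl1, a chemokine for neutrophils, differed by -2.07 with that array and by -0.95 without it. The brightest Cxcl1 probe set overlapped between the lines and differed by -2.97, or -1.76 without that array. None of these 4 genes passed the test in either case.

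**Figure D2:**
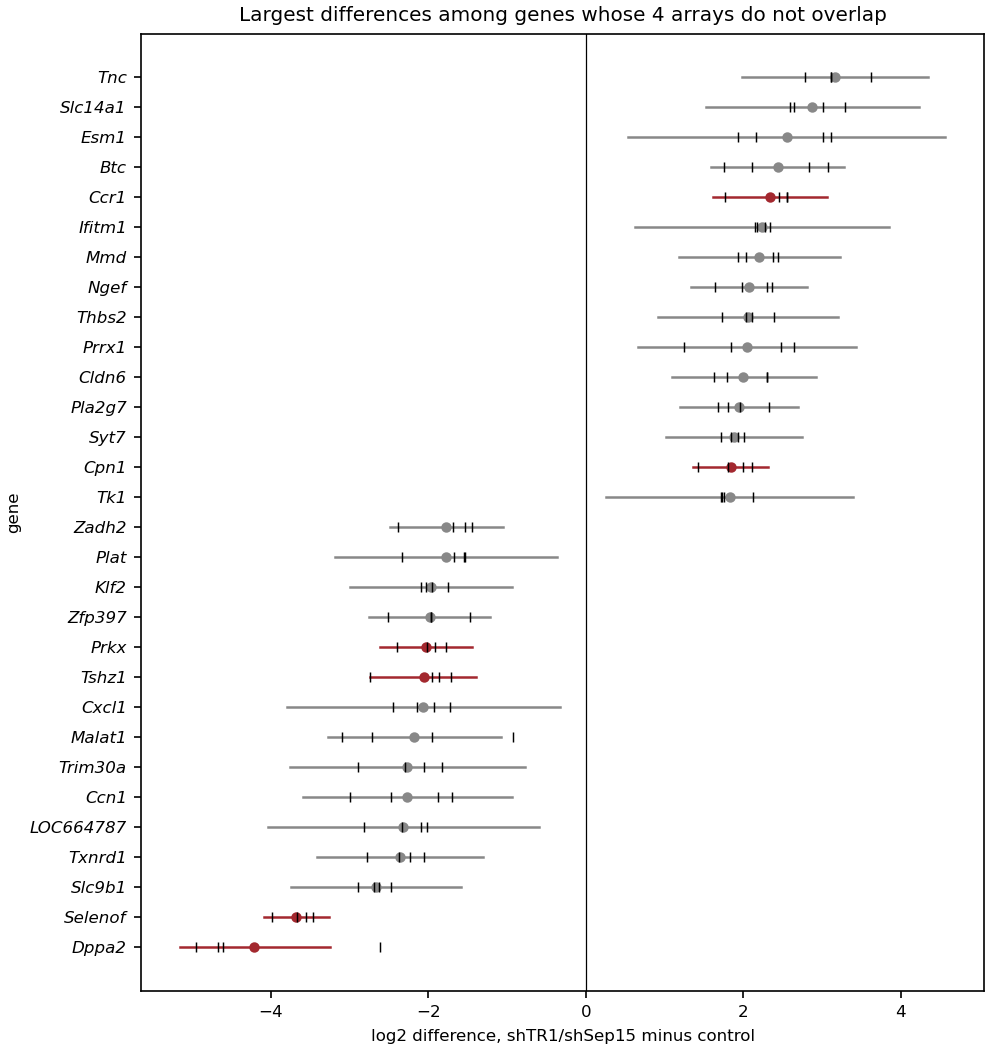
The largest log2 differences between shTR1/shSep15 and control cells, 15 genes in each direction, among single-symbol probe sets whose 4 arrays of each line do not overlap. Points are the estimate and bars its 95% interval. Dppa2 lies at -4.21 and Tnc at 3.17.

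Groups of genes were then read as lists, by the number of members that were higher or lower and by the median difference, beside the median over all genes of 0.01. The 33 lists held 636 distinct measured genes, of which Ccr1 passed the test upwards and Selenof and Dppa2 downwards. Of these genes 51 had an unadjusted p under 0.05 and a higher mean and 21 had a lower one, against 1128 higher (6.2%) and 471 lower (2.59%) among all 18193 genes. These lists were chosen with earlier results in view, and no list was tested as a whole.

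Genes of the cell division cycle were higher on average in the double knockdown, and this moved with control replicates 2 and 3. Of 29 G2 and mitosis genes 28 were higher, with a median difference of 0.70, and of 34 DNA replication genes 33 were higher, with a median of 0.58. No member passed in limma or in the methods' test after adjustment, while 6 and 4 members had an unadjusted p under 0.05. Plk1, the polo-like kinase of mitotic entry, read 9.13, 6.29, 7.48 and 9.06 in control and 9.26, 9.61, 9.24 and 9.09 in shTR1/shSep15 cells. Rrm1, the large subunit of ribonucleotide reductase, which depends on thioredoxin or glutaredoxin, read 9.76, 7.87, 8.56 and 9.62 against 10.07, 9.94, 10.17 and 9.9 (1.07, adjusted p = 0.501). Without control replicate 2 the difference of Rrm1 was 0.71, and that of Plk1 went from 1.31 to 0.74. In both genes control replicates 1 and 4 lay near the double knockdown and replicates 2 and 3 below it.

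The list means showed the same order of arrays. The mean of the G2 and mitosis genes was 9.50, 7.66, 7.88 and 9.33 in control replicates 1 to 4 and 9.32, 9.18, 9.35 and 9.11 in the shTR1/shSep15 arrays. For DNA replication the means were 8.79, 7.13, 7.79 and 8.54 against 8.69, 8.53, 8.71 and 8.50. The groups overlapped in both lists. Control replicate 2 was the lowest of the 8 arrays for 19 of the 29 and 31 of the 34 genes, and without it the medians were 0.39 and 0.22, with no member at an unadjusted p under 0.05.

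Immediate-early genes, which growth factors and stress induce within minutes, were lower in the double knockdown with control replicate 2 included and not without it. Of 25 genes 2 were higher and 23 lower, with a median of -0.89, and without that array 15 were higher and 10 lower, with a median of 0.02. Their mean signal was 7.63, 11.07, 7.75 and 7.47 in control and 7.64, 7.41, 7.58 and 7.64 in shTR1/shSep15 cells. Fos, a subunit of the transcription factor AP-1, read 8.02, 13.52, 5.41 and 7.0 in control and 5.6, 5.04, 5.89 and 5.39 in shTR1/shSep15 cells (-3.01, adjusted p = 0.563), and without control replicate 2 its difference was -1.33 (adjusted p = 0.97). That array held the highest of the 8 values for 23 of the 25 genes (92%), and for 19.1% of all genes.

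**Figure D3:**
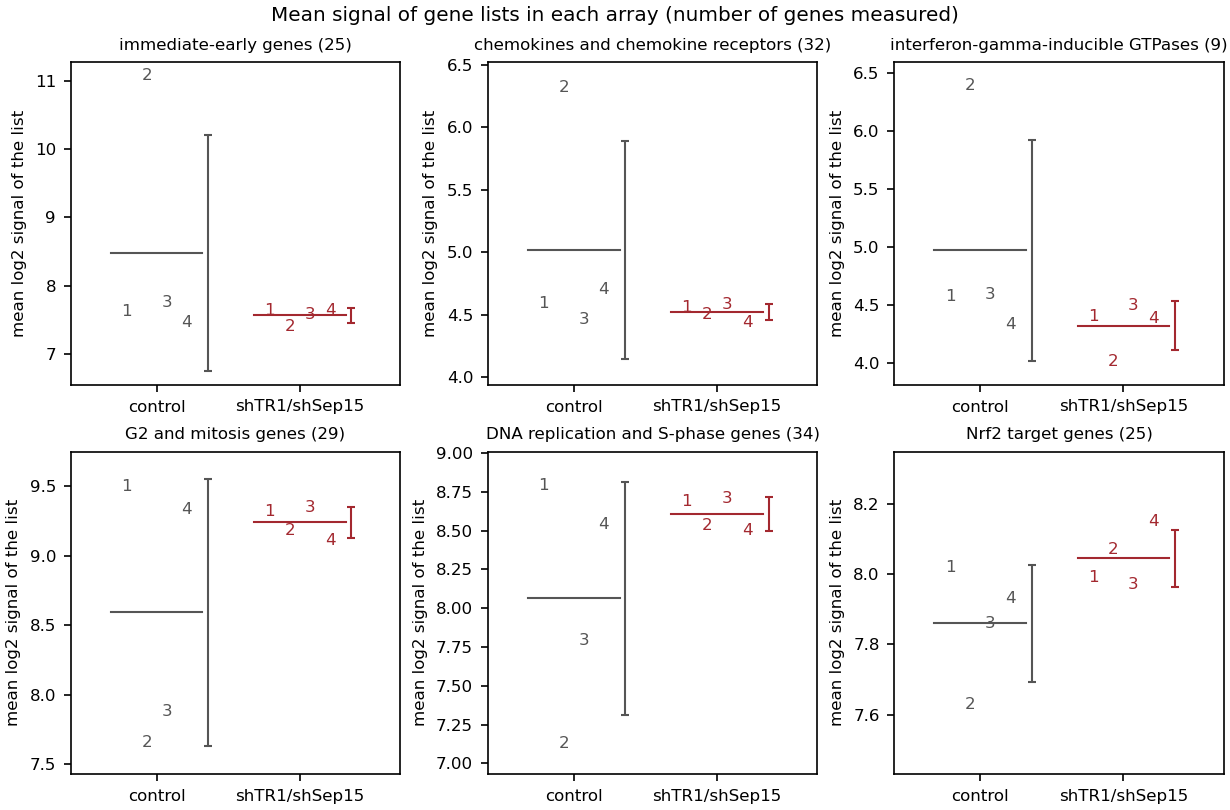
The mean log2 signal of 6 gene lists in each control and shTR1/shSep15 array, with the number of genes measured in the panel titles. Numbers are arrays by replicate, lines the mean and bars the SD of 4 arrays. Control replicate 2 lies far above the others for immediate-early genes (11.07) and lowest of all 8 arrays for G2 and mitosis genes (7.66).

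Matrix genes were described by class. Among 26 matricellular proteins 14 were higher, with a median of 0.04, and 4 were higher at an unadjusted p under 0.05: Tnc and Thbs2, Tnxb, a tenascin, at 0.83 (adjusted p = 0.362), and Fbln2, a fibulin, at 0.97 (adjusted p = 0.529, and 0.54 on the log2 scale without control replicate 2). None was lower at that level. Of 27 collagens and microfibril genes 13 were higher, and Fn1, fibronectin, read 9.81, 9.84, 10.68 and 9.84 in control and 11.19, 10.96, 11.27 and 11.35 in shTR1/shSep15 cells (1.15, standard error 0.28, adjusted p = 0.265). All 4 double knockdown arrays were above the controls for Fn1. The chains of basement membrane collagen Col4a1 and Col4a2 were higher by 0.94 and 0.92 (adjusted p = 0.531 and 0.504), the latter by 0.48 without control replicate 2, and the microfibril genes Mfap5 and Mfap4 were lower by 0.82 and 0.36 on the log2 scale (adjusted p = 0.556 and 0.474). Of 23 matrix proteases and plasminogen genes 11 were higher, and Timp1, an inhibitor of metalloproteinases, was at 10.95, 10.24, 10.02 and 11.07 against 11.53, 11.4, 11.45 and 11.38 (0.87, adjusted p = 0.468). In these lists no gene passed the threshold in limma, nor in the methods' test after adjustment.

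Growth factor and signalling lists held single genes with large differences. Of 17 EGF family genes 9 were higher with a median of 0.00, and Btc alone had an unadjusted p under 0.05. Of 22 targets of YAP and TEAD 9 were higher, and Amotl2, an angiomotin that binds YAP, was at 9.4, 10.34, 9.74 and 9.56 against 8.8, 8.95, 8.74 and 8.99 (-0.89, adjusted p = 0.302). Of 32 chemokines and their receptors 6 were higher, with a median of -0.12, and without control replicate 2 the count was 14 and the median -0.03. Ccr1 passed the test, and Ackr3, the scavenger receptor of CXCL12, was low in control (2.91, 2.96, 2.89 and 2.84) and higher in each shTR1/shSep15 array (5.05, 3.73, 4.92 and 3.91), a difference of 1.5 (adjusted p = 0.509). Among 16 pluripotency genes Dppa2 fell, while Sox2, a transcription factor of stem cells, was at 7.58, 7.24, 7.13 and 6.78 in control and 8.6, 7.76, 8.74 and 8.02 in shTR1/shSep15 cells (1.10, adjusted p = 0.442).

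Genes of the Wnt pathway were read by role, since Wnt components were among the genes that the study followed up. The ligands and their secretion factors had 10 of 25 members higher (median -0.06), the receptors 10 of 20 (0.03), the destruction complex and the inhibitors 15 of 30 (0.01), β-catenin with its nuclear partners 10 of 19 (0.05) and the target genes 16 of 28 (0.06). None of these genes passed in limma or in the methods' test after adjustment. At an unadjusted p under 0.05 they held 7 entries that were higher and none that was lower. In the order above these were 1 of 25, 1 of 20, 2 of 30, 1 of 19 and 2 of 28. With all 8 arrays this is near the share of all genes, of which 6.2% were higher and 2.59% lower at that level. Without control replicate 2, the higher members numbered 1, 0, 1, 3 and 5 in the same order. The lower ones numbered 0, 0, 1, 0 and 0, while 716 of all 18193 genes were higher and 357 lower. The β-catenin partners (3 of 19) and target genes (5 of 28) thus held more higher members without that array, and none passed after adjustment. Wnt10a, a ligand, read 7.22, 7.24, 6.88 and 6.89 in control and 7.93, 7.89, 7.96 and 8.27 in shTR1/shSep15 cells, with no overlap and a difference of 0.95 (standard error 0.45, adjusted p = 0.617). Ctnnbip1 (ICAT), which keeps β-catenin from its DNA-binding partners, read 7.82, 6.98, 7.12 and 7.5 against 8.17, 8.43, 8.01 and 7.89 (0.77, adjusted p = 0.26), and a second probe set differed by 0.65 (adjusted p = 0.46).

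Besides Ctnnbip1, the Wnt genes with an unadjusted p under 0.05 included Porcn, the acyltransferase that Wnt ligands need for secretion, with 5.33, 5.23, 5.96 and 5.54 in control and 6.22, 6.12, 6.01 and 6.47 in shTR1/shSep15 cells (0.69, adjusted p = 0.46), and Smarca4 (BRG1), a chromatin remodeller recruited by β-catenin, with 8.91, 7.95, 8.25 and 8.72 against 9.16, 9.12, 9.18 and 9.15 (0.70, adjusted p = 0.264). In neither gene did the lines overlap. The target genes Birc5 (survivin) and Id2 were higher by 1.04 (adjusted p = 0.587, and 0.55 on the log2 scale without control replicate 2) and 1.23 (adjusted p = 0.599), and the secreted antagonist Dkk2 by 1.07 (adjusted p = 0.587). Of the scaffold proteins of the destruction complex, Apc differed by -0.45 (standard error 0.26, adjusted p = 0.717), and its 3 other probe sets by -0.27, -0.44 and -0.46 (adjusted p = 0.757, 0.822 and 0.582). The probe sets of Axin1 disagreed in sign, at 0.14 (standard error 0.11, adjusted p = 0.81) and -0.43 (standard error 0.15, adjusted p = 0.47), and their median was -0.14.

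Genes around the 2 targets were read for the systems in which they work. Of 23 selenoproteins and their factors 15 were higher, with a median of 0.14. Besides the targets, Selenoh, a redox protein of the nucleolus, read 10.18, 9.49, 9.99 and 10.35 in control and 10.81, 10.67, 10.69 and 10.47 in shTR1/shSep15 cells (0.66, adjusted p = 0.452), and Selenom, a protein of the endoplasmic reticulum in the same family as Sep15, read 7.48, 6.93, 8.04 and 7.4 against 8.19, 8.44, 8.2 and 8.38 (0.84, adjusted p = 0.502). The mitochondrial thioredoxin reductase Txnrd2 was higher by 0.34 (adjusted p = 0.587). Without control replicate 2 the selenoproteins held 1 higher member at an unadjusted p under 0.05 in place of 5.

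In the thioredoxin system 18 of 23 genes were higher, with a median of 0.17, or 0.11 without control replicate 2. Glrx, the cytosolic glutaredoxin, which reduces disulfides with glutathione, read 6.91, 6.1, 6.38 and 6.45 in control and 7.33, 7.16, 7.27 and 7.38 in shTR1/shSep15 cells (0.82, standard error 0.19, adjusted p = 0.249), with no overlap. Txnip, the inhibitor of thioredoxin, differed by -1.69 with control replicate 2 and by -0.73 without it (adjusted p = 0.559 and 0.946). Targets of Nrf2, the transcription factor that is activated when thiols are oxidized, were higher in 20 of 25 genes, with a median of 0.29, and in 20 of 25 again without control replicate 2, with a median of 0.21. Among them the multidrug resistance proteins Abcc1 and Abcc4 were higher by 0.57 (adjusted p = 0.498) and 0.91 (adjusted p = 0.587), and Fth1, the ferritin heavy chain, by 0.36 (adjusted p = 0.607), and without control replicate 2 the differences of Abcc4 and Fth1 were 0.39 and 0.16, while Txnrd1, itself on the list, was the lowest. Of 20 genes of glutathione synthesis and reduction 11 were higher, with a median of 0.07. Apart from Selenof, no gene of the redox lists passed in limma or in the methods' test after adjustment.

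In the calnexin cycle and the folding machinery of the endoplasmic reticulum, where Sep15 resides, 19 of 30 genes were higher, with a median of 0.13. Pdia4 (ERp72), a protein disulfide isomerase, read 8.59, 7.95, 8.58 and 8.81 in control and 9.09, 9.38, 9.28 and 9.21 in shTR1/shSep15 cells (0.76, adjusted p = 0.334), with no overlap. The mannosidase-like proteins that pass misfolded glycoproteins to degradation did not share a direction: Edem1 and Edem2 were higher by 1.10 (adjusted p = 0.385) and 0.59 (adjusted p = 0.549), and Edem3 differed by -0.52 (adjusted p = 0.521). Atf4, a transcription factor of the stress response, differed by -0.47 (adjusted p = 0.576).

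Interferon-stimulated genes were mostly lower than control by small amounts, with 11 of 44 higher and a median of -0.45, which was -0.19 without control replicate 2. Of 9 interferon-γ-inducible GTPases 1 was higher (median -0.52, and -0.16 without that array), and of 15 genes of class I antigen presentation 5 were higher (median -0.18, and -0.08 without it). Ifitm1 and Trim30a alone in these lists had an unadjusted p under 0.05, in opposite directions. Of 28 caspases and apoptosis regulators 11 were higher, and Bcl2l11 (BIM), a trigger of mitochondrial apoptosis, read 8.0, 11.0, 7.37 and 7.49 against 7.21, 6.56, 7.25 and 7.08 (-1.44, adjusted p = 0.541). Control replicate 2 was again the highest there, and without it the difference was -0.6 (adjusted p = 0.661). The lists of prolactin family genes (8 of 16 higher), common γ chain cytokine receptors (4 of 15) and oncofetal genes (9 of 14) held no gene at an unadjusted p under 0.05. This covers only the members that a single-symbol probe set measured. Listed members without one are not counted, although every probe set, named or not, was tested. These lists therefore do not show that the uncounted members were unchanged.

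**Figure D4:**
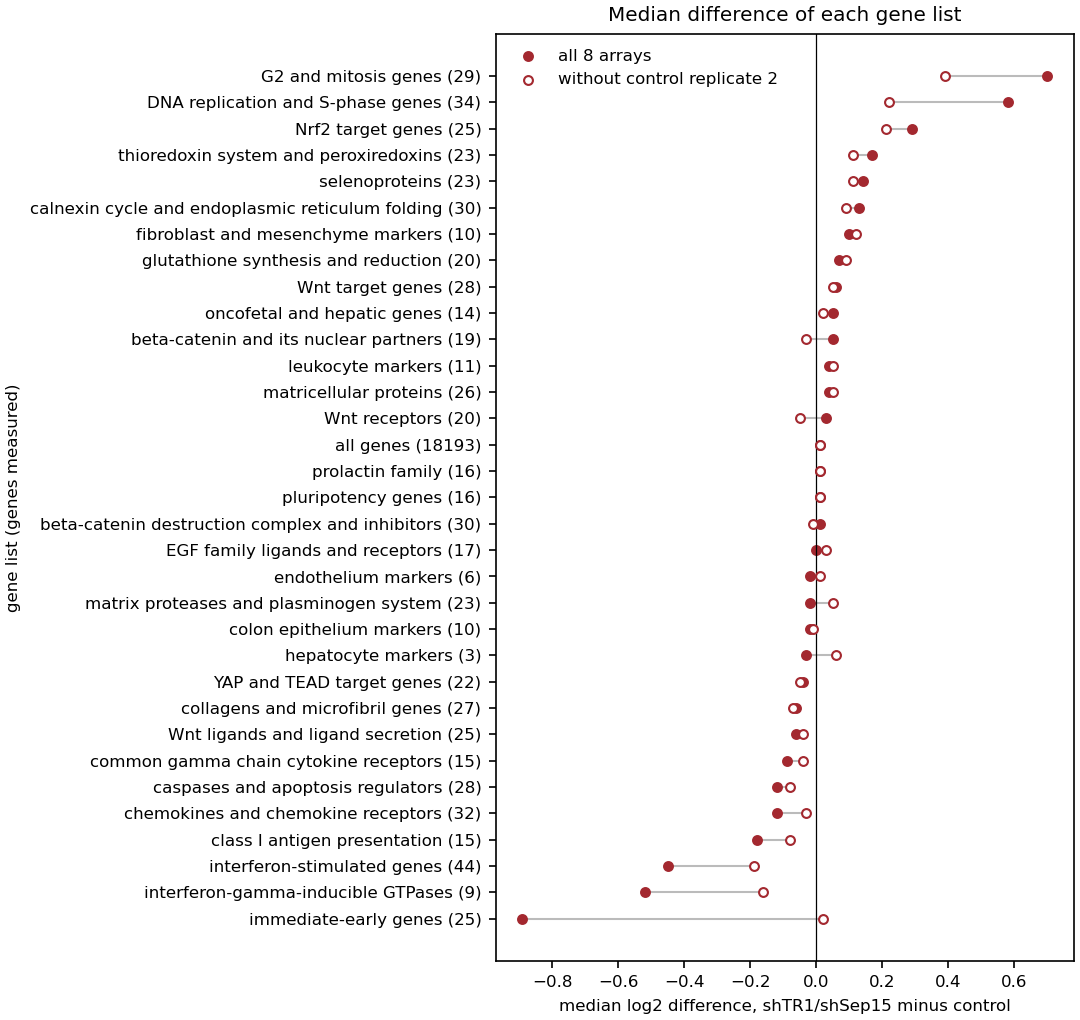
The median log2 difference between shTR1/shSep15 and control cells for each gene list and for all genes, with the number of genes measured. Filled points use all 8 arrays and open points leave out control replicate 2. The median of the immediate-early genes moves from -0.89 to 0.02 and that of the G2 and mitosis genes from 0.70 to 0.39.

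Set against the single knockdowns, the double knockdown had more probe sets past the threshold against shSep15 cells than against control cells. In shTR1/shSep15 against shSep15, 1196 probe sets passed (2.66%), 486 higher (1.08%) and 710 lower (1.58%), and in shTR1/shSep15 against shTR1, 33 passed (0.0733%), 9 higher (0.02%) and 24 lower (0.0533%). The second count includes the 2 shTR1 arrays with Txnrd1 at the control level. These comparisons share the shTR1/shSep15 arrays, so the counts are not independent of each other. The departure from the sum of the effects of each hairpin passed for 1282 probe sets (2.85%), 331 higher (0.735%) and 951 lower (2.11%).

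Genes induced by interferon were among those lower in shTR1/shSep15 than in shSep15 cells. Of 44 interferon-stimulated genes 15 were lower and 1 higher at the threshold (median -2.19), and of 9 interferon-γ-inducible GTPases 6 were lower (median -4.43), against 346 of 18193 genes lower (1.9%) and 291 higher (1.6%). Against shTR1 cells 43 of the 44 and 9 of the 9 had a lower mean, as did 7313 of the 18193 genes. The medians were -1.22 and -2.38, and 0 of these members were lower at the threshold. The mean of the GTPases was 4.6, 6.26, 5.0 and 9.39 in the shTR1 arrays and 6.15, 9.53, 8.73 and 8.84 in the shSep15 arrays. Usp18, the protease that removes the ubiquitin-like modifier ISG15, read 3.77, 3.68, 3.58 and 3.54 in shTR1/shSep15 cells, 7.84, 11.39, 10.9 and 11.27 in shSep15 cells and 3.73, 5.0, 4.79 and 3.78 in control cells. The double knockdown was at the control level and differed from shSep15 by -6.71 (standard error 1.22, with an adjusted p of 0.00823). Irgm2, a GTPase that guards against vacuolar pathogens, read 3.71, 4.13, 3.64 and 3.91 against 6.29, 9.12, 8.87 and 8.82 in shSep15 cells, with a control mean of 3.9. Ifitm1, the member that was higher, read 4.55, 4.9, 5.86 and 5.83 in shSep15 cells, below both control and double knockdown (5.54 between the knockdowns, adjusted p = 0.00144).

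Other genes were low in shSep15 cells and at or above the control level in the double knockdown. Afp, α-fetoprotein, a serum protein of the fetal liver, read 10.07, 10.25, 10.12 and 10.28 in shTR1/shSep15 cells, 3.67, 2.71, 3.59 and 3.64 in shSep15 cells and 9.7, 9.58, 9.47 and 9.31 in control cells. In shTR1 cells it spread from 11.13 in replicate 1 to 6.93, 6.75 and 8.57 in the others, which lay below control. The difference from shSep15 was 6.78 (standard error 0.67, adjusted p = 0.000157) and that from control 0.67 (adjusted p = 0.864). Igfbp4, which binds insulin-like growth factors, read 9.58, 9.6, 9.56 and 9.53 against 5.73, 4.12, 3.84 and 4.49 in shSep15 cells (5.02, adjusted p = 0.000165), with a control mean of 8.55 that control replicate 2 lowered (7.09). Selp, the adhesion molecule P-selectin, read 9.21, 8.41, 9.04 and 8.23 against 5.65, 4.36, 4.72 and 4.36 (3.95, adjusted p = 0.000446), with a control mean of 7.41. In each of these genes the 4 double knockdown arrays lay far above all shSep15 arrays, and for Afp and Igfbp4 they lay close together.

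Arhgef5 was low in both single knockdowns and at the control level in the double knockdown. This guanine nucleotide exchange factor read 9.37, 9.43, 9.57 and 9.84 in shTR1/shSep15, 9.6, 8.72, 9.39 and 9.18 in control, 4.64, 4.92, 4.53 and 4.53 in shSep15 and 4.45, 4.51, 4.75 and 4.36 in shTR1 cells. The double knockdown was above shSep15 by 4.90 (adjusted p = 1.3e-09) and above shTR1 by 5.04 (adjusted p = 8.83e-10), and differed from control by 0.33 (adjusted p = 0.658), or 0.17 without control replicate 2. Phrf1, a PHD finger protein with ubiquitin ligase activity, was likewise lower in both single knockdowns than in the other lines, at means of 9.69 in control, 9.13 in double knockdown, 7.78 in shSep15 and 7.82 in shTR1 cells (1.31 above shTR1, adjusted p = 0.000176). Rpp21, a subunit of ribonuclease P, ran the other way, with means of 6.96 in control and 7.04 in double knockdown cells and of 8.63 and 8.32 in the single knockdowns (adjusted p = 0.000417 and 0.0177).

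**Figure D5:**
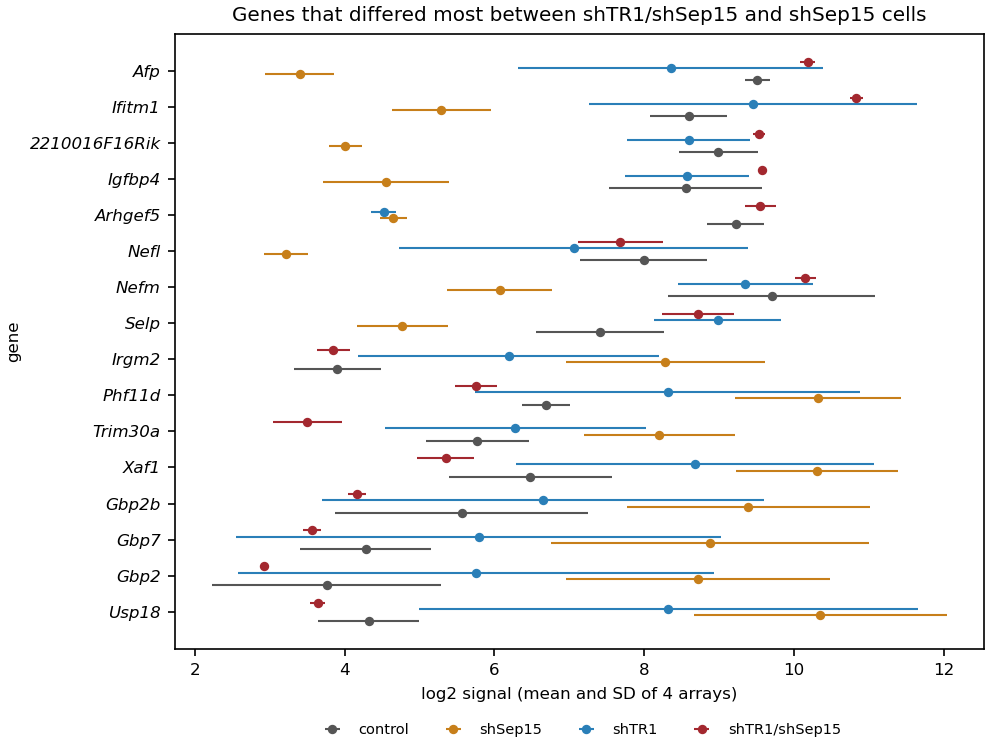
The mean log2 signal and SD of 4 arrays in each line for genes that differed most between shTR1/shSep15 and shSep15 cells. For most of these genes the shTR1/shSep15 cells lie near control and the shSep15 cells apart, such as Usp18 with means of 3.64 and 10.35 and Afp with 10.18 and 3.4, and Arhgef5 is low in both single knockdowns.

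The 30 genes with the largest differences from control were also read against the single knockdowns. They were picked by the double knockdown arrays that enter these comparisons too, so the same direction was favoured from the start. Of the 15 higher genes, all 15 were above shSep15, 10 of them at the threshold, where 1.6% of all genes passed upwards. Against shTR1 14 were above, of which Cpn1 passed, where 0.033% of all genes passed upwards. Of the 15 lower genes 12 were below shSep15, 6 of them at the threshold, where 1.9% of all genes passed downwards. Among the same 15, 1 was above shSep15 at the threshold. Against shTR1 13 were below, of which 2 passed, where 0.077% of all genes passed downwards. Many of these differences from control were shared in direction by the single knockdowns. Of the 15 higher genes, 15 were above control in shTR1 and 5 in shSep15 cells. Of the 15 lower genes, 13 were below control in shTR1 and 10 in shSep15 cells. The control arrays that picked the genes enter these counts too, and the share over all genes is not given here. By chromosome, the median difference from control ran from -0.02 on chromosome 18 to 0.04 on chromosomes 13 and 17. Of 459 genes on chromosome 18, 23 were lower and 9 higher at an unadjusted p under 0.05. Of 834 genes on chromosome 17, 9 were lower and 93 higher. Among all genes 2.59% were lower and 6.2% higher at that level. Against shSep15 cells, chromosome 3, which carries Selenof, held 122 genes that were lower and 3 that were higher at the adjusted threshold, of 913 measured. Among all genes 1.9% were lower and 1.6% higher. Hs2st1 and Sh3glb1, the genes on either side of Selenof, differed from control by 1.59 and 1.13 in shSep15 cells. In the double knockdown they differed from control by 0.15 and 0.2. The cause was not tested.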

How the data were processed

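Total RNA was isolated with TRIzol, and the signals of Affymetrix mouse genome arrays were deposited by the authors as background-corrected, normalized log2 values from RMA, whose version is not given in the sources used here. They were used as deposited. Of 45101 probe sets the 64 control probe sets were left out and 45037 tested, of which 34945 carry 1 gene symbol, 932 several and 9160 none in the platform annotation. In counts of genes and in gene lists, a gene was represented by its single-symbol probe set with the highest mean over all arrays (18193 genes). Arrays have no read depth, and their number limits the precision.

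The members and gene lists were chosen with earlier results of these data known. limma 3.58.1 (R 4.3.3) fitted a mean for each of the 4 lines to all 16 arrays, with empirical Bayes moderation (12 residual degrees of freedom) and Benjamini-Hochberg adjustment over all probe sets. The threshold was an adjusted p under 0.05, and every p in the text is two-sided and from limma unless named otherwise. A departure from additivity is shTR1/shSep15 minus shSep15 minus shTR1 plus control. Named were the targets, all called genes with 1 symbol, the 15 genes per direction with the largest difference in any single-symbol probe set, the brightest or not, with no overlap of arrays and an unadjusted p under 0.05, genes the study followed up, up to 4 genes per list by smallest p, and 8 genes per direction against each single knockdown. Of the genes followed up, 2 (Prl2c2 and Ccnb1) have no single-symbol probe set and are not reported by name. Gene order and chromosomes are those of RefSeq on GRCm38.p6. The test was checked on simulated data. Alternatives were an intensity trend, bright probe sets, only the arrays compared, quantile normalization, centring, array weights, the replicate number as a block, the methods' ANOVA contrast with and without adjustment (the methods' test), a size criterion, other probe set choices and each array left out. A spike-in covariate and leaving out both replicate 2 arrays were added after seeing the data. Plots used Python 3.11.15 and matplotlib 3.10.9.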

Additional observations from a re-analysis of the deposited data

Results flagged for a closer look

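Values that lay far from the other 3 of their line, by Dixon's test at the 95% level, were found in 19 of 146 sets of 4 arrays. Of these, 9 were values of control replicate 2, and chance alone flags about 5% of such sets. In single genes, shTR1/shSep15 replicate 4 was the highest of its line for both Dppa2 probe sets (4.62 and 5.54), control replicate 3 was the highest for Ccr1 (4.91) and the lowest for Esm1 (3.18), and shTR1/shSep15 replicate 2 was the lowest for Ccr1 (6.16) and the highest for Tk1 (9.75). Control replicate 2 was the highest for Klf2 (10.97) and Plat (11.49).

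In list means, control replicate 2 was the highest for immediate-early genes (11.07), Wnt target genes (6.82), the EGF family (6.7), chemokines (6.32) and interferon-γ-inducible GTPases (6.39), and the lowest for glutathione genes (7.01) and Wnt receptors (5.26). Replicate 2 of shTR1/shSep15 was the lowest for the hairpin targets (7.26) and for β-catenin with its partners (6.59), and the highest for oncofetal genes (5.71) and leukocyte markers (5.46).

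The departure from the sum of the effects of each hairpin passed the test for 12 probe sets of the named genes. Dppa2 departed by 4.19 and 4.83, Tshz1 by 2.52, Zfp397 by 1.05 and Jakmip3 by 1.04. In these 4 genes the means of both single knockdowns lay near that of the double knockdown, as given above. The departure therefore has about the size of the fall from control with its sign turned. Cells labelled with either hairpin alone had about the fall seen with both, and the cause was not tested. The shTR1 means include replicates 2 and 4, with Txnrd1 at the control level. In shTR1 replicates 1 to 4 the second Tshz1 probe set read 6.67, 7.84, 7.24 and 6.98, below every control array. The brightest Zfp397 probe set read 5.34, 6.45, 6.85 and 6.77 there and overlapped control. Cpn1 departed by 1.86 and Prkx by -2.08. Departures in other named genes were those of Afp by 7.95, Klf2 by 4.99, Ifitm1 by 4.68, Trim30a by -5.22 and Ccnb1ip1, a ubiquitin ligase of meiotic crossover, by -4.33.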

How the results depend on the processing

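In shTR1/shSep15 against control the 11 calls became 3 among bright probe sets, 24 (15 higher, 9 lower) with only the arrays compared, 68 (45 higher, 23 lower) with array weights and 3368 (1837 higher, 1531 lower) in the methods' ANOVA without adjustment. They ran from 8 to 21 when 1 array was left out, with 21 (5 higher, 16 lower) without control replicate 2, of which 10 were among the 11. Against shSep15 the 1196 calls became 3753 with only the arrays compared, 5525 with array weights and 1888 with the spike-in level as a covariate, and ran from 613 to 1019 with 1 array left out. Against shTR1 the 33 calls became 1084 with array weights, 75 with the spike-in level and 15 with the replicate block, and ran from 5 to 250, with 250 without shTR1 replicate 1, 11 without shTR1 replicate 4, and 11, 8, 9 and 5 without shTR1/shSep15 replicates 1 to 4. The 1282 departures from additivity became 4462 with array weights and ran from 656 to 2340, with 2340 without control replicate 2. The cause was not tested.

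The difference of Selenof was -1.84 as the median over its probe sets, the dim one included, and ran from -3.86 to -3.57 with 1 array left out. That of Txnrd1 was -2.36 and past the threshold with only the arrays compared (adjusted p = 0.0199) and in the ANOVA without adjustment, was -1.09 as the median over its probe sets, and ran from -2.53 to -2.21. Axin1 turned to -0.14 as the median over its probe sets. Ccnb1ip1, at -0.08, turned to 0.12 with array weights, 0.15 without control replicate 1 and 0.11 without shTR1/shSep15 replicate 2, and reached -0.24 without control replicate 2. For the named genes 683 values kept their direction and their side of the threshold, 46 passed it, 32 no longer did, 11 that carry no test moved by more than the spread between replicates, and these 4 reversed. Of the list medians 481 moved by less than the spread between replicates and 13 by more.

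Nothing states what the replicate numbers stand for, and the deviations of same-numbered control and shTR1/shSep15 arrays correlated at 0.352, -0.0948, -0.449 and -0.34, so the numbers were not used as pairs. With the replicate number as a block, 11 probe sets were called against control (8 of the same), 977 against shSep15, 15 against shTR1 and 1130 for additivity, and Prkx, Ccr1 and Tshz1 lost their calls.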
